A study of Arabidopsis thaliana with 48 samples.

Results

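COR27, CCL, RVE6 (AT5G52660) and AT3G62550 were followed through short light and dark cycles in Arabidopsis seedlings, as 4 probe sets of the 22746 tested on the Affymetrix ATH1 array. COR27 and CCL were taken by symbol, RVE6 by locus, and AT3G62550 was added to them as a gene with a time-of-day difference in the light in Col. All 4 were chosen as clock-linked genes or for that difference, so the values of the Col light arrays that bear on it are given as a description, with no test. Each gene had 1 probe set that named it alone.

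Whole seedlings were pooled for each sample. Every group was grown on medium with sucrose, in short days until dawn of day 4, and then moved to 3 cycles a day of 160 min of light and 320 min of dark. The plants were of the accession Col (21 arrays), of CCA1OX, a line that overexpresses the clock transcription factor CCA1 (21 arrays), and of pif4 pil5, a line mutant in phytochrome-interacting bHLH factors (6 arrays). Col and CCA1OX were each sampled at 4 times of day, 120 min into the light of the first cycle (light 120, 5 arrays), 120 min into its dark phase (dark 280, 6 arrays), and at the same points of the third cycle (light 1080 and dark 1240, 5 arrays each), while pif4 pil5 was sampled at dark 280 alone. Sampling was repeated on days 4, 5 and 6 after germination and in 2 time courses, and these repeats are the replicates. The labels call hypocotyls growing in Col at dark 280 and in CCA1OX at both dark times, and not growing in the other groups. The promoter that drives CCA1 in CCA1OX is not given in the sources used here, the altered genes of CCA1OX and pif4 pil5 were not analysed here, and the p-values measure the spread between these pooled samples and not between single plants.

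The circadian clock of Arabidopsis is built on loops of repressors and activators that peak in turn. CCA1, a MYB-like repressor that peaks at dawn, binds the promoters of genes of the evening and keeps them low in the morning, so that constant CCA1 is known to flatten many daily rhythms. RVE6 belongs to the same MYB-like family but, with its close relatives, activates evening genes. COR27 encodes a small regulator that is induced by cold, is itself a target of CCA1 and represses clock genes of the evening. CCL (CCR-like) is known for a short-lived transcript whose stability changes with the time of day, while the reference tables used here give AT3G62550 no symbol and no role.

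Values are log2 expression from robust multi-array average (RMA), on which a difference of 1 is a doubling, and no probe set's level is set against another's. Array medians lay between 4.58 and 4.81, and the lowest correlation between arrays of a group was 0.944. The arrays fall into 2 campaigns of 24 by the dates in their names, which are the time courses of Col and CCA1OX, and all pif4 pil5 arrays carry 1 date of the second. A darkness score of light-responsive probe sets, higher in the dark and built from the second campaign, went against the label in 3 arrays of the first: Col dark 280 replicate 3 (score -1.37) and CCA1OX dark 280 replicate 2 (-1.20) lay outside the other dark arrays of that campaign (0.03 to 1.90), and Col light 1080 replicate 3 (1.21) outside its other light arrays (-1.61 to -0.34). They were kept under their labels, and some of the results that rest on them are also given without them, with 45 arrays. Among tissue markers, RCA, the activase of Rubisco in green tissue, read 10.96 to 12.84 and the root peroxidase gene AT5G66390 read 6.50 to 9.10. Of the markers listed, 1 of 12 for green tissue, 1 of 6 for root and 0 of 9 for seed storage had a single-gene name here.

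**Figure D1:**
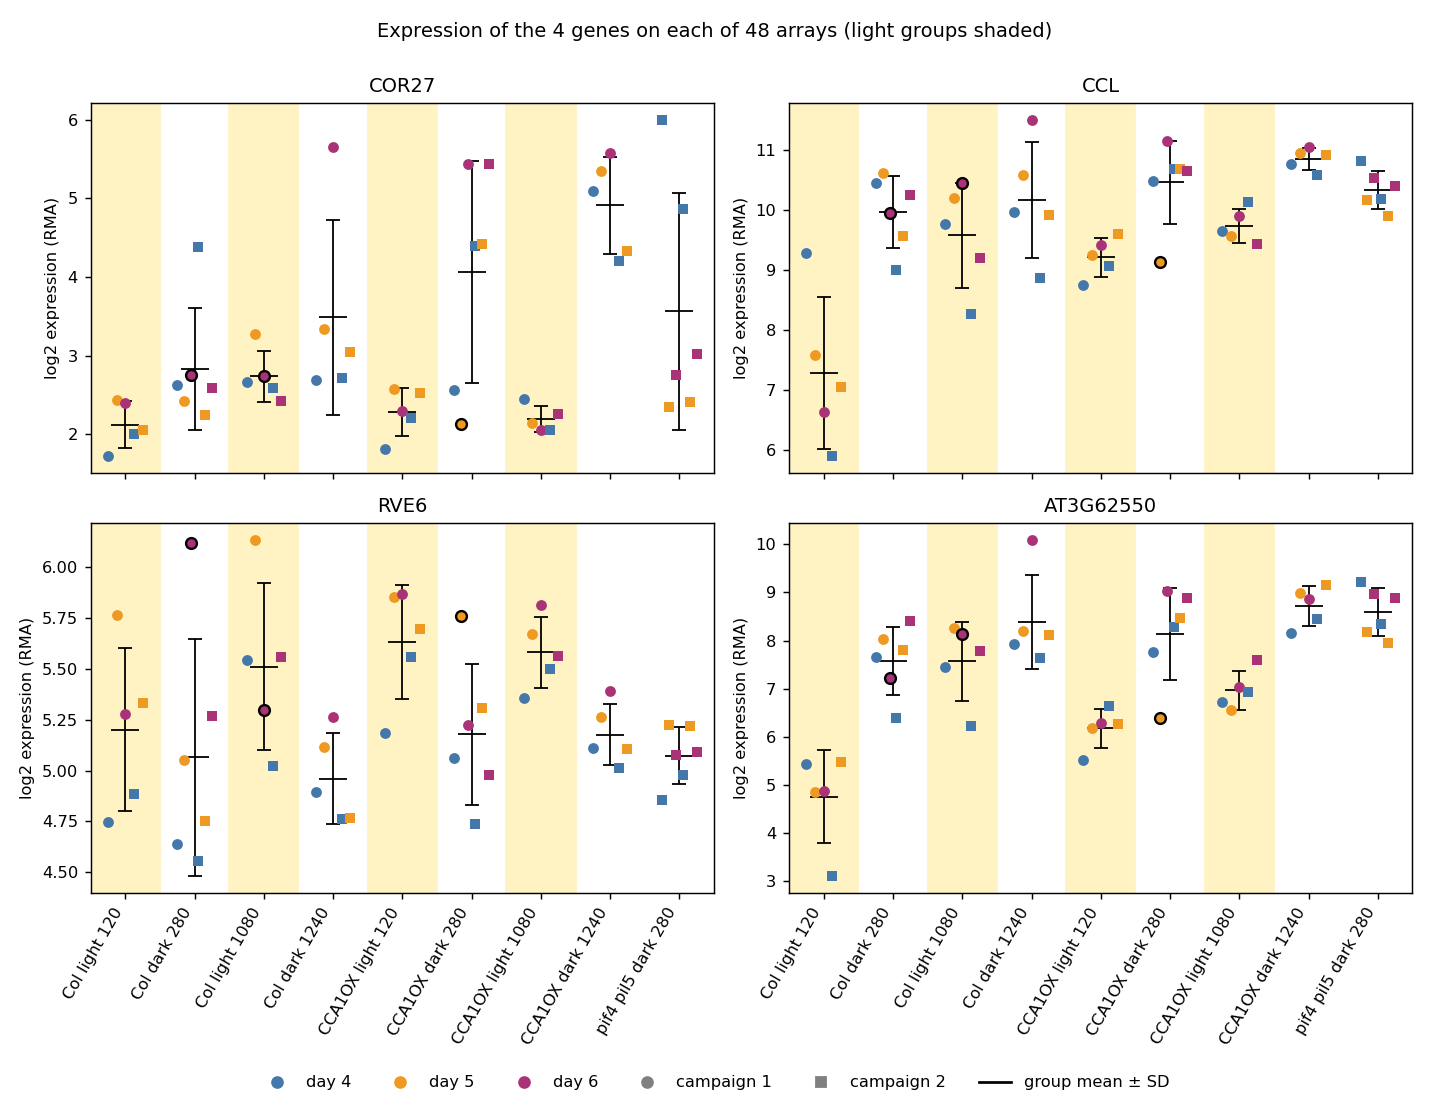
Log2 expression (RMA) of COR27, CCL, RVE6 and AT3G62550 on each of 48 arrays, by group, with colour for the day, shape for the array campaign, black outlines for the 3 arrays whose light-responsive genes went against their label, and bars for the group mean ± SD. COR27 is at most 3.28 on the light arrays and at least 4.21 on 9 of 11 CCA1OX dark arrays, and CCL and AT3G62550 have their lowest groups at Col light 120.

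COR27 was low on every array taken in the light and high on most dark arrays of CCA1OX. In that line the 5 arrays at light 1080 read 2.45, 2.15, 2.05, 2.06 and 2.26. At dark 1240, which comes 160 min later, its 5 arrays read 5.09, 5.35, 5.58, 4.21 and 4.33. The groups did not overlap. The level rose by 2.72 ± 0.563 (log2 difference ± SE; limma, adjusted p = 2.55e-03). No fold is given, because all 5 light values lay under 2.61, the limit of the lowest 25% of probe set means. COR27 was higher in the dark in 4 of 4 pairs of the same day and time course, by 2.15 to 3.53. In whole seedlings, more cells with the transcript and more transcript per cell cannot be told apart.

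At the earlier light and dark times of CCA1OX the picture was less even. The light 120 arrays read 1.81, 2.58, 2.30, 2.21 and 2.52, and the dark 280 arrays read 2.56, 2.13, 5.44, 4.40, 4.42 and 5.44. Dark 280 replicates 1 and 2 lay among the light arrays and the other 4 above all of them. The difference of 1.78 ± 0.539 did not pass the test (adjusted p = 0.0855). Without the 3 arrays that stood apart, 1 of which is dark 280 replicate 2, it was 2.17 and passed (adjusted p = 9.59e-03). It also passed when replicate 1 or 2 of dark 280, or replicate 1 of pif4 pil5, was the one array removed.

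In Col the same gene stayed low on most arrays. Light 120 read 1.72, 2.44, 2.40, 2.01 and 2.05, and light 1080 read 2.67, 3.28, 2.74, 2.59 and 2.42. Dark 280 read 2.63, 2.42, 2.76, 4.38, 2.25 and 2.58, and dark 1240 read 2.69, 3.34, 5.65, 2.71 and 3.05. A single array in each dark group, replicate 4 of dark 280 and replicate 3 of dark 1240, reached the levels seen in CCA1OX in the dark. As a description, COR27 in Col was higher by 0.62 ± 0.563 at light 1080 than at light 120 and by 0.75 ± 0.563 at dark 1240 than at light 1080.

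Over all 48 arrays no COR27 value lay between 3.34 and 4.21. This gap was looked for after the values were seen. Above it were 0 of 20 light arrays, 2 of 11 dark arrays of Col, 9 of 11 dark arrays of CCA1OX and 2 of 6 of pif4 pil5. Below it COR27 was close to the dimmest probe sets of the array: 24 of its 48 values lay under the limit of 2.61.

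CCL, the clock-controlled transcript of known short life, was lowest in Col at light 120. The 5 arrays there read 9.28, 7.58, 6.64, 5.91 and 7.06, where light 1080 read 9.77, 10.21, 10.45, 8.26 and 9.20. Dark 280 of Col read 10.44, 10.62, 9.94, 9.00, 9.56 and 10.25, and dark 1240 read 9.97, 10.59, 11.50, 8.87 and 9.92. Replicate 1 of light 120, on day 4 of the first time course, was the one array of its group inside the range of the other groups. As a description of the contrast that chose these genes, CCL in Col was higher by 2.29 ± 0.424 at light 1080 than at light 120. It was higher in 4 of 4 pairs, by 0.49 to 3.82. The pair at 3.82 holds light 1080 replicate 3, which stood apart. Without that array the light 1080 mean of CCL was 9.36 in place of 9.58.

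The trough at light 120 was shallower in CCA1OX. Its light 120 arrays read 8.75, 9.25, 9.42, 9.06 and 9.59, and its light 1080 arrays 9.66, 9.57, 9.90, 10.13 and 9.43. The 2 light groups of CCA1OX overlapped. The difference between them was 0.52 ± 0.424, against the 2.29 in Col, and did not pass the test (limma, adjusted p = 1.00, 95% interval -0.33 to 1.38). Within CCA1OX, light 1080 was higher than light 120 in 4 of 4 pairs, by 0.32 to 1.07. Light 120 itself was higher in CCA1OX than in Col by 1.92 ± 0.424, in 4 of 5 pairs. This is again a description because the Col light arrays chose the genes.

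In the dark CCA1OX held CCL at 10.48, 9.13, 11.15, 10.68, 10.68 and 10.65 at 280 min and at 10.76, 10.95, 11.04, 10.58 and 10.91 at 1240 min. The array at 9.13 is the one whose light-responsive genes went against its dark label. All 5 arrays at dark 1240 were above all 5 at light 1080. The dark minus light differences of 1.25 ± 0.406 in the first cycle and 1.11 ± 0.424 in the third did not pass the test (adjusted p = 0.115 and 0.146). With 45 arrays the first was 1.51 and passed (adjusted p = 0.0155), as it did with the array at 9.13 alone removed.

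AT3G62550 followed CCL from array to array. In Col it read 5.44, 4.85, 4.88, 3.11 and 5.48 at light 120, against 7.46, 8.26, 8.13, 6.22 and 7.79 at light 1080. At dark 280 it read 7.66, 8.03, 7.22, 6.38, 7.81 and 8.41, and at dark 1240 it read 7.93, 8.20, 10.09, 7.63 and 8.11. Every light 120 array of Col lay below every other Col array. The difference of light 1080 from light 120 was 2.82 ± 0.442, a 7.05-fold description of the choice. Dark 280 was higher than light 120 by 2.83 ± 0.424. Without replicate 3 of each, which stood apart, the means were 7.43 in place of 7.57 at light 1080 and 7.66 in place of 7.58 at dark 280.

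In CCA1OX, whose arrays the rule of choice did not name, AT3G62550 rose from light to dark in both cycles. Light 120 read 5.52, 6.19, 6.28, 6.64 and 6.27, and dark 280 read 7.76, 6.40, 9.02, 8.28, 8.46 and 8.88. The rise was 1.96 ± 0.424, or 3.88-fold (adjusted p = 0.0188), and the array at 6.40 is again dark 280 replicate 2, which stood apart. This call was lost without dark 280 replicate 3, 4, 5 or 6, with the difference between 1.78 and 2.30 over all arrays left out in turn. Light 1080 read 6.71, 6.55, 7.03, 6.94 and 7.60, and dark 1240 read 8.15, 9.00, 8.86, 8.45 and 9.15, with no overlap. The rise there was 1.76 ± 0.442, or 3.38-fold (adjusted p = 0.0133), with 4 of 4 pairs higher in the dark. By time of day in the light, AT3G62550 differed in CCA1OX by 0.79 ± 0.442 (adjusted p = 1.00), in 4 of 4 pairs the same way, where Col differed by 2.82.

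RVE6, the MYB-like activator, moved the other way from light to dark and by less. In CCA1OX the light 120 arrays read 5.18, 5.85, 5.87, 5.56 and 5.70, and dark 280 read 5.06, 5.76, 5.22, 4.74, 5.31 and 4.98. At light 1080 they read 5.36, 5.67, 5.81, 5.50 and 5.56, and at dark 1240 they read 5.11, 5.26, 5.39, 5.01 and 5.11. The groups overlapped in each cycle. RVE6 was lower in the dark in 5 of 5 and 4 of 4 pairs, but the differences of -0.45 ± 0.200 and -0.40 ± 0.209 did not pass the test (adjusted p = 0.302 and 0.356). Without the 3 arrays that stood apart the first was -0.57 and passed (adjusted p = 0.0346).

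In Col, RVE6 read 4.75, 5.77, 5.28, 4.89 and 5.33 at light 120 and 5.55, 6.13, 5.30, 5.02 and 5.56 at light 1080. Dark 280 read 4.64, 5.05, 6.12, 4.56, 4.75 and 5.27, and dark 1240 read 4.89, 5.12, 5.26, 4.76 and 4.77. All 4 groups overlapped, and the array at 6.12 is the dark array that stood apart. RVE6 at dark 1240 differed from light 1080 by -0.55 ± 0.209 and was lower in 4 of 4 pairs, a description since Col light arrays enter it. Its time-of-day difference in Col light, 0.31 ± 0.209, was smaller than its SD of 0.41 at light 1080.

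Of the members, 1 of 4 passed the test from light 120 to dark 280 in CCA1OX, where 1.43% of all probe sets did, and 2 of 4 from light 1080 to dark 1240, where 4.32% did. The rule of choice named neither pair of groups. The members were chosen with earlier results of these data known, so these calls are not fully independent of the choice. By array campaign alone, COR27 rose from light 1080 to dark 1240 by 3.12 in the first and by 2.11 in the second, and AT3G62550 by 1.91 and 1.53. With 24 arrays in each none of these passed (adjusted p = 0.254, 0.285, 0.260 and 0.306). Of all 22746 probe sets, 0 passed in the first campaign alone and 594 in the second alone. The contrast of light 1080 with light 120 in CCA1OX called 0 of 4 members and 0% of probe sets (limma, 0 of 22746; 655 had an unadjusted p under 0.05, none of them a member). Whether the time-of-day difference differs between the lines was not tested, since the Col side chose the genes; as values, Col exceeded CCA1OX by 1.77 ± 0.599 for CCL, 2.03 ± 0.626 for AT3G62550, 0.71 ± 0.796 for COR27 and 0.36 ± 0.295 for RVE6.

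**Figure D2:**
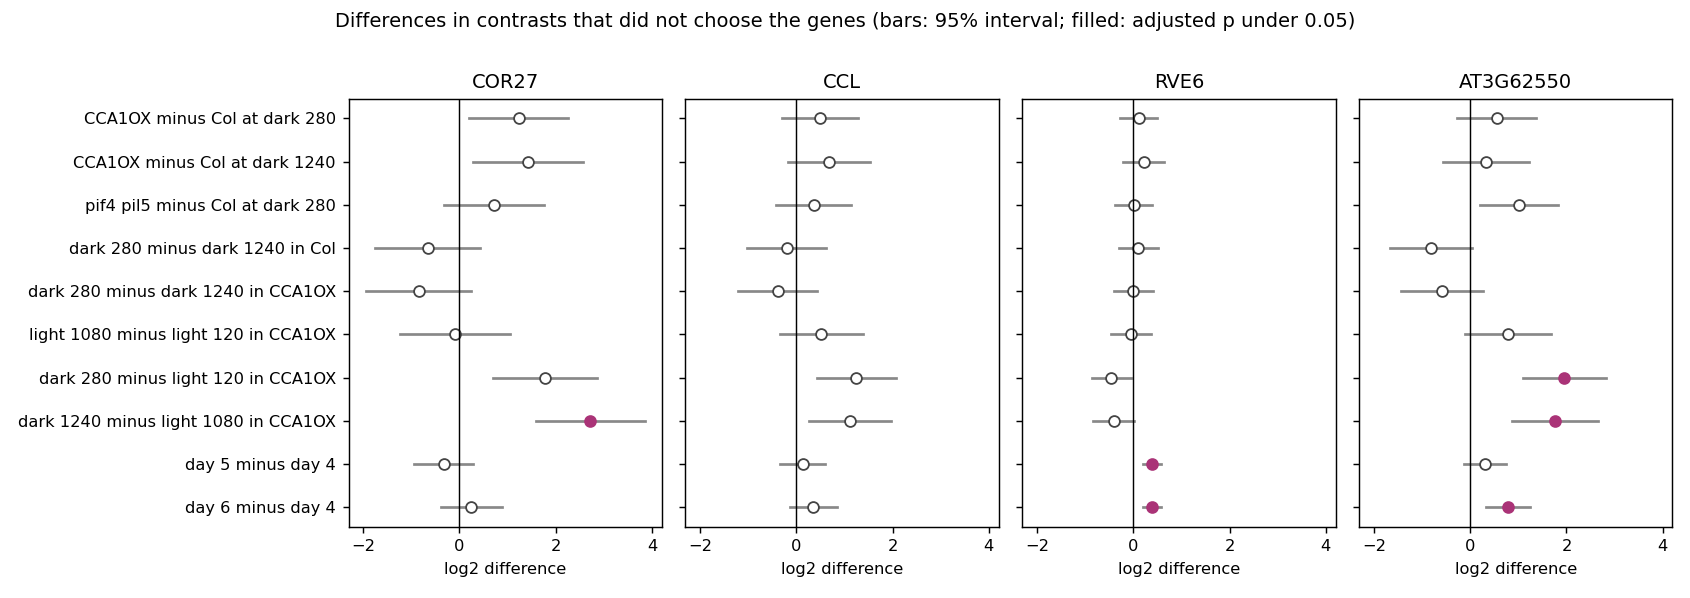
Log2 differences of the 4 genes in 10 of the contrasts that the rule of choice did not use, with 95% intervals as bars. Filled points mark an adjusted p under 0.05 (limma over all probe sets). COR27 passed from light 1080 to dark 1240 in CCA1OX, AT3G62550 in both dark minus light contrasts and on day 6, and RVE6 on days 5 and 6.

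The dark groups were used to ask how the lines differ outside the light. COR27 had the largest size of difference of the 4 genes between CCA1OX and Col, 1.23 ± 0.514 at dark 280 (95% interval 0.19 to 2.27) and 1.42 ± 0.563 at dark 1240 (0.29 to 2.56). Neither passed the test over all probe sets (adjusted p = 0.575 and 0.483). Pairs of the same day and time course, all 21 of which shared an array date, showed it from -0.29 to 2.86 at dark 280 and from -0.08 to 2.41 at dark 1240, with 4 of 6 and 4 of 5 higher in CCA1OX. The pairs near 0 came about in different ways. At dark 280 on day 4 of the second time course both lines were high (4.40 and 4.38). Both were also high at dark 1240 on day 6 of the first (5.58 and 5.65). On days 4 and 5 of the first time course both were low at dark 280. The day 5 array of CCA1OX there (2.13) is replicate 2, which stood apart.

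The other members differed less between the lines in the dark. CCL was higher in CCA1OX by 0.49 ± 0.387 and 0.68 ± 0.424, AT3G62550 by 0.55 ± 0.404 and 0.33 ± 0.442, and RVE6 by 0.11 ± 0.190 and 0.22 ± 0.209 at dark 280 and dark 1240, with adjusted p from 0.820 to 0.949. With 45 arrays the dark 280 differences were 0.75 for CCL, 0.82 for AT3G62550, 0.21 for RVE6 and 1.60 for COR27, and none passed (adjusted p from 0.355 to 0.856). In the first campaign alone the sign turned for CCL at dark 280 (-0.078) and for AT3G62550 at dark 1240 (-0.073). RVE6 was higher in CCA1OX in 5 of 5 pairs at dark 1240, each time by a small amount, 0.13 to 0.34. In all, 0 of 4 members passed at dark 280, where 0.123% of probe sets did, and 0 of 4 at dark 1240, where 0.62% did. At an unadjusted p under 0.05 (limma), 1 member, COR27, was past it at each time. Of all 22746 probe sets, 1662 were past it at dark 280 and 1588 at dark 1240.

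At light 1080 COR27 and AT3G62550 had lower means in CCA1OX. COR27 was lower in CCA1OX than in Col in 5 of 5 pairs, with differences from -1.13 to -0.16, and AT3G62550 in 4 of 5. The differences of the group means were -0.55 ± 0.563 and -0.61 ± 0.442. By campaign, COR27 differed by -0.68 and -0.35, whereas AT3G62550 differed by -1.19 in the first and by 0.26, the other way, in the second. These values are descriptions, and those of COR27 lie in its dim range.

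**Figure D3:**
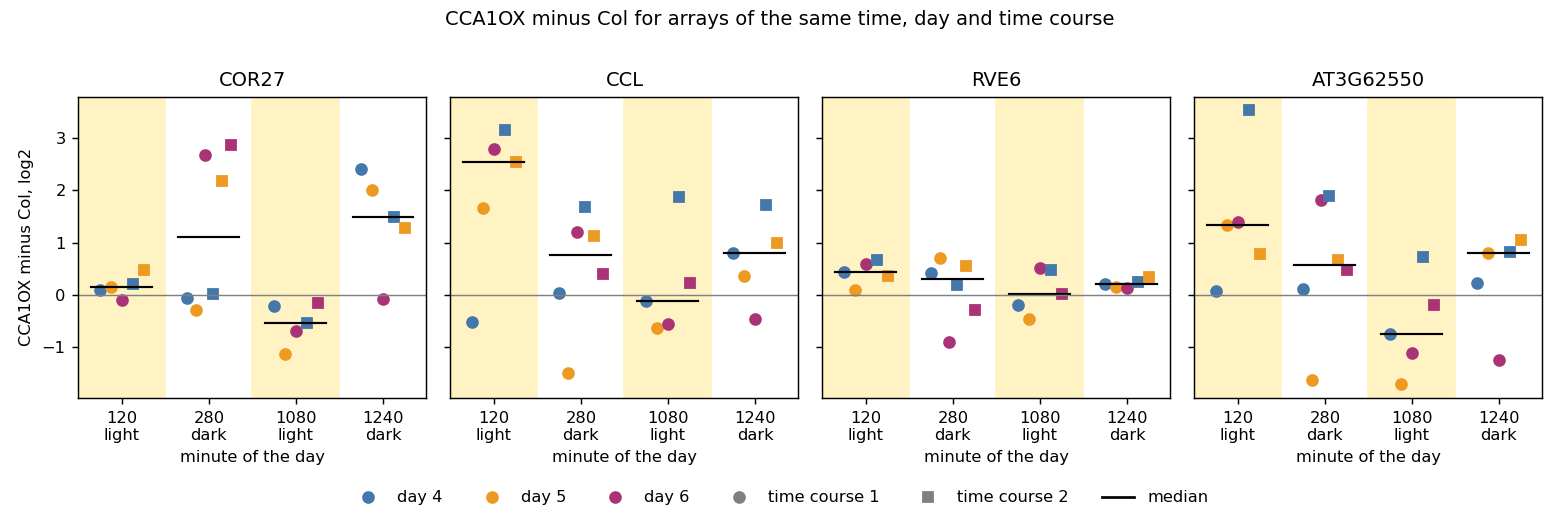
CCA1OX minus Col (log2) for arrays of the same time, day and time course, with the minute of the day on the x axis, light times shaded, colour for the day, shape for the time course and a line for the median. At dark 1240 COR27 was higher in CCA1OX in 4 of 5 pairs, at light 1080 in 0 of 5, and CCL at light 120 in 4 of 5.

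Time of day in the dark was compared as dark 280 minus dark 1240. COR27 differed by -0.65 ± 0.539 in Col and -0.85 ± 0.539 in CCA1OX, AT3G62550 by -0.81 ± 0.424 and -0.59 ± 0.424, CCL by -0.20 ± 0.406 and -0.39 ± 0.406, and RVE6 by 0.10 ± 0.200 and 0.00 ± 0.200. No member passed (0 of 4 in each), with adjusted p from 0.963 to 1.00. AT3G62550 was lower at dark 280 in 5 of 5 pairs of Col, with differences from -2.88 to -0.18. The pair at -2.88 holds Col dark 280 replicate 3 (7.22), which stood apart but lay within the range of its group for this gene. Its other array, dark 1240 replicate 3 (10.09), was the highest of its group by far. Of all probe sets 0.101% passed in Col and 0% in CCA1OX (limma, 0 called and 303 at an unadjusted p under 0.05). The difference of this contrast between Col and CCA1OX was 0.19 ± 0.762 for COR27, 0.19 ± 0.573 for CCL, 0.10 ± 0.283 for RVE6 and -0.22 ± 0.599 for AT3G62550, with 0 of 4 members and 0% of probe sets passing (0 called by limma, 381 at an unadjusted p under 0.05). In Col the 95% interval ran from -1.66 to 0.04 for AT3G62550 and from -1.02 to 0.62 for CCL.

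In pif4 pil5 at dark 280, AT3G62550 read 9.23, 8.18, 8.96, 8.35, 7.95 and 8.89, and CCL read 10.81, 10.17, 10.53, 10.18, 9.91 and 10.40. COR27 read 6.00, 2.34, 2.75, 4.86, 2.40 and 3.02, and RVE6 read 4.86, 5.22, 5.07, 4.98, 5.22 and 5.09. The values are in the order days 4, 5 and 6 of the first time course and then of the second. Each of the 4 genes overlapped with Col at the same time. AT3G62550 was higher by 1.01 ± 0.404 (95% interval 0.19 to 1.82), COR27 by 0.73 ± 0.514, CCL by 0.36 ± 0.387 and RVE6 by 0.01 ± 0.190, and 0 of 4 passed (adjusted p from 0.235 to 0.989), where 0.607% of probe sets did. That share came from 138 probe sets, and 357 passed with the replicate number as a block, again with no member. The pif4 pil5 arrays were all of 1 array date that held 1 Col dark 280 array, so the date was separated from the line only through the other groups: with array date as a block, AT3G62550 differed by 0.50 in place of 1.01.

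COR27 within pif4 pil5 split by day. Both arrays of day 4, at 6.00 and 4.86, were above the 4 arrays of days 5 and 6, at 2.34 to 3.02. The darkness score split these arrays alike, with 1.34 and 0.94 on day 4 and 0.30 to 0.62 on the other 4 arrays, and its part in the COR27 difference was not tested. In these 6 arrays alone, which share a date, day 5 minus day 4 was -3.06 ± 0.308 (adjusted p = 1.87e-03, where 3.33% of probe sets passed) and day 6 minus day 4 was -2.55 ± 0.308 (adjusted p = 1.70e-03, where 11.3% passed). At dark 280 Col showed 1 high array on day 4 (4.38) beside 1 low one (2.63), and CCA1OX was high on both day 6 arrays (5.44 and 5.44) and on days 4 and 5 of the second time course (4.40 and 4.42). The difference in day pattern between lines was tested over the 18 dark 280 arrays after these values were seen. It did not pass: day 6 minus day 4 in pif4 pil5 differed by -1.72 ± 1.03 from Col (adjusted p = 0.952) and by -4.51 ± 1.03 from CCA1OX (adjusted p = 0.340), and day 5 minus day 4 by -1.89 ± 1.03 from Col (adjusted p = 1.00), with 0 probe sets called in each.

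Over the days RVE6 and AT3G62550 rose, with each group given its own level and the day added. RVE6 ran from 4.56 to 5.56 on the 18 arrays of day 4, from 4.75 to 6.13 on the 16 of day 5 and from 4.98 to 6.12 on the 14 of day 6. It was higher on day 5 than on day 4 by 0.39 ± 0.0926 (1.31-fold, adjusted p = 7.30e-03) and on day 6 by 0.39 ± 0.0963 (1.31-fold, adjusted p = 3.18e-03). Within a group and time course, day 5 was above day 4 in 16 of 16 pairs and day 6 in 13 of 14, while day 6 was above day 5 in 6 of 12. The exception was Col light 1080 of the first time course, whose day 6 array is 1 of the 3 that stood apart. The other 2 ended rises of the first time course. These were the largest rise to day 6, 1.48 in Col dark 280, and the rise of 0.70 to day 5 in CCA1OX dark 280.

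AT3G62550 was higher on day 6 than on day 4 by 0.79 ± 0.224 (1.73-fold, adjusted p = 9.39e-03), in 11 of 14 pairs, and by 0.30 ± 0.216 on day 5 (adjusted p = 0.475). CCL differed by 0.13 ± 0.230 and 0.35 ± 0.239 and COR27 by -0.32 ± 0.303 and 0.25 ± 0.315 on days 5 and 6, and neither gene passed. In all, 1 of 4 members passed on day 5, where 6.46% of probe sets did, and 2 of 4 on day 6, where 20.2% did.

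Day was partly tied to array date. With array date as a block, RVE6 differed by 0.23 on day 5 and 0.21 on day 6 (adjusted p = 0.709 and 0.594) and AT3G62550 by 0.80 on day 6 (adjusted p = 0.370), so the calls were lost. Within the second array date, which holds days 5 and 6 of the first time course, RVE6 differed by -0.04 ± 0.184 and AT3G62550 by 0.50 ± 0.349 between day 6 and day 5 (adjusted p = 0.970 and 0.723). The pif4 pil5 arrays, all of 1 date, gave RVE6 differences of 0.30 ± 0.141 on day 5 and 0.17 ± 0.141 on day 6 (adjusted p = 0.330 and 0.518). In the same arrays AT3G62550 differed by -0.72 ± 0.255 on day 5, opposite to its sign over all arrays, and by 0.14 ± 0.255 on day 6 (adjusted p = 0.189 and 0.802). A measure of RNA quality, the difference of 3' from 5' control probe sets, had medians of 1.63, 1.62 and 1.71 on days 4, 5 and 6, and within groups it correlated with the 4 genes by 0.04 to 0.27 over 48 arrays. On CCA1OX light 1080 replicate 5 (day 6) the RNA quality measure was 2.47, and the next highest array read 1.87. The part of array date and RNA quality in the day differences was not tested beyond these values.

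**Figure D4:**
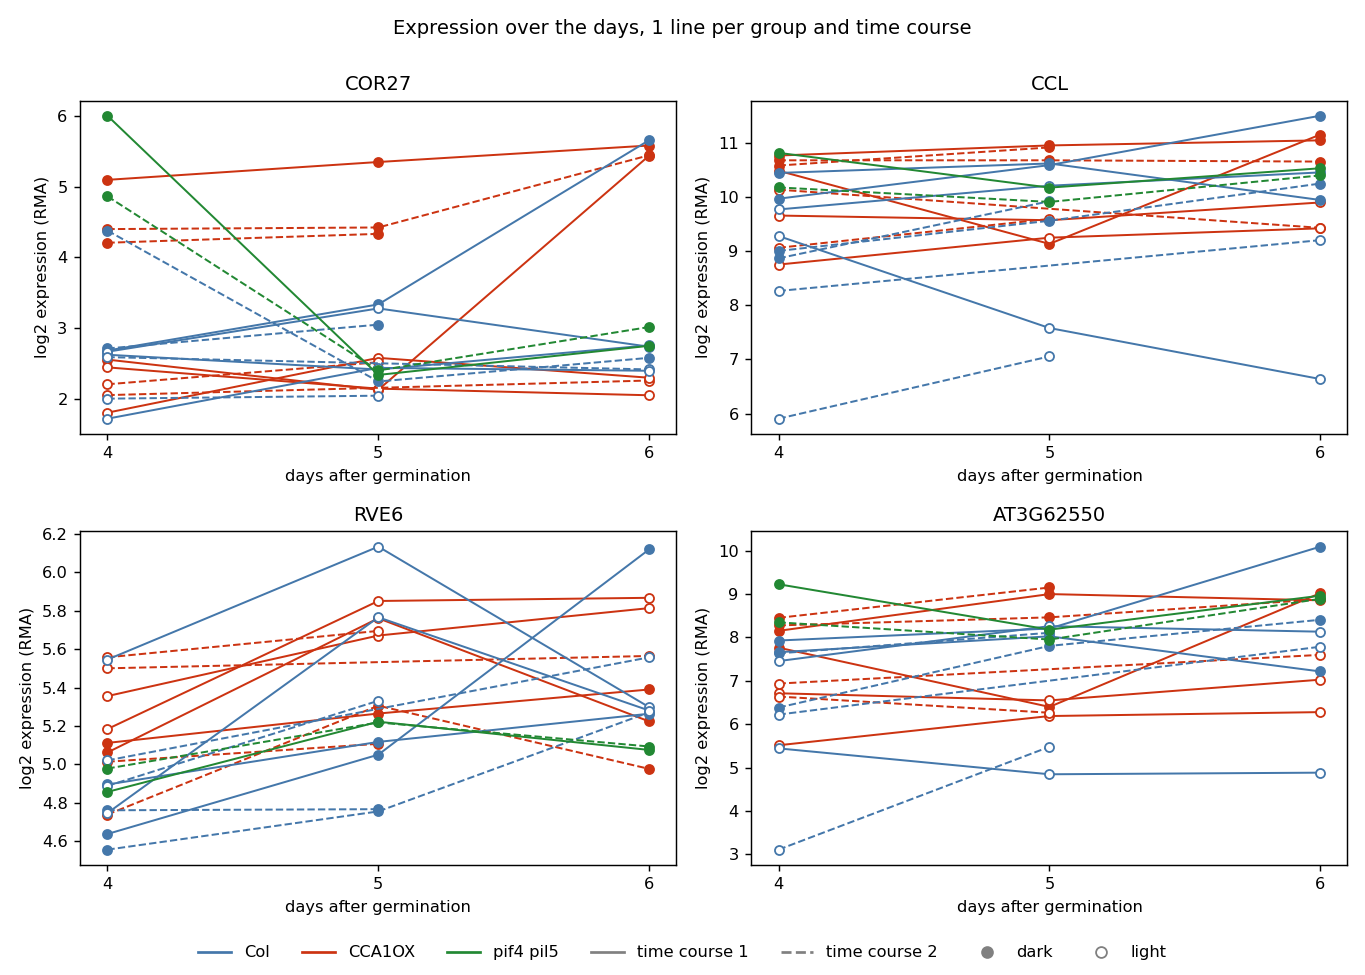
Log2 expression (RMA) of the 4 genes against the day after germination, 1 line per group and time course, with colour for the line, dashes for the second time course and open points for light. RVE6 is higher on day 5 than on day 4 in all 16 pairs, and COR27 in pif4 pil5 falls from 6.00 and 4.86 on day 4 to 2.34 and 2.40 on day 5.

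The order of the groups differed between the genes. COR27 had the 4 light groups at the bottom and CCA1OX dark 1240 at the top (means 2.12 to 4.91), and RVE6 had the 5 dark groups at the bottom and CCA1OX light 120 at the top (4.96 to 5.63). Within the dark, both genes had their lowest means in Col, then pif4 pil5, then CCA1OX. CCL ran from 7.29 at Col light 120 to 10.85 at CCA1OX dark 1240, and AT3G62550 from 4.75 to 8.72 between the same groups. Between neighbours in these orders, the step was larger than both groups' SD at 1 of 8 steps for COR27, 1 of 8 for CCL, 0 of 8 for RVE6 and 2 of 8 for AT3G62550. For CCL and AT3G62550 the first step, from Col light 120 to CCA1OX light 120, was among these.

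CCL and AT3G62550 moved together from array to array. Their correlation was 0.904 over 48 arrays, 0.777 after each group's mean was taken off, 0.925 and 0.926 in the 2 campaigns, 0.858 over light arrays and 0.835 over dark arrays. These are descriptions: the arrays of a group share their time of day, and both genes were chosen on Col light. COR27 correlated with AT3G62550 by 0.656 and with CCL by 0.584, or 0.441 and 0.329 within groups. RVE6 had values of -0.262, -0.086 and -0.181 with COR27, CCL and AT3G62550. Within groups the darkness score correlated with COR27, CCL and AT3G62550 by 0.411, 0.594 and 0.552 and with RVE6 by -0.416.

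**Figure D5:**
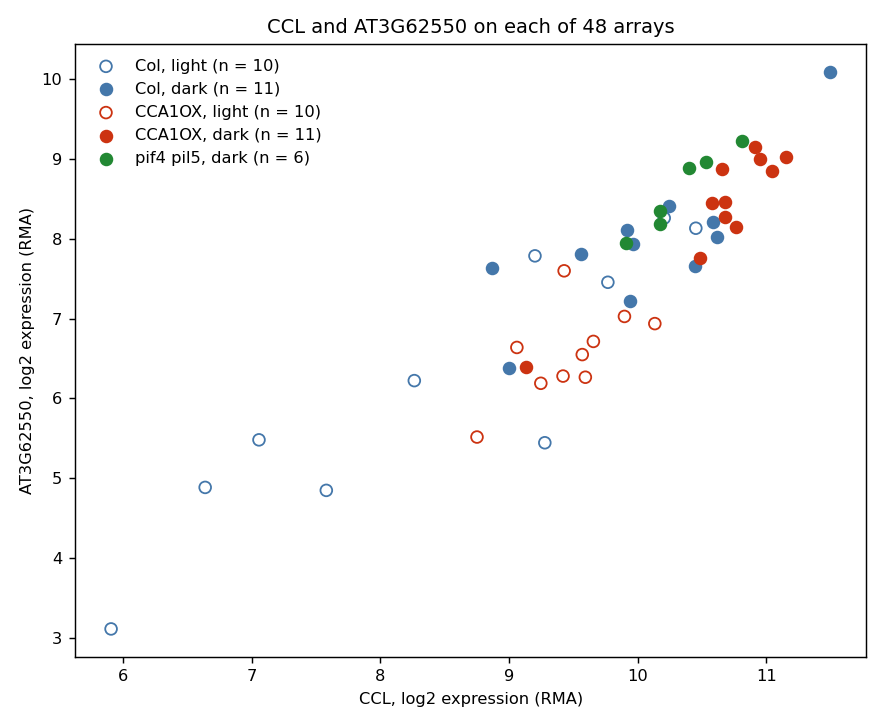
AT3G62550 against CCL (log2 expression, RMA) on each of 48 arrays, with colour for the line and filled points for dark. The points run along 1 diagonal (correlation 0.904), with the Col light 120 arrays at its lower end, from 5.91 and 3.11.

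The probe sets with a single name whose values were most like each gene over the 48 arrays were found by Pearson correlation, as a description. COR27 was most like AT5G49170 (correlation 0.790), AT1G17665 (0.768) and AT3G53250 (0.765), and no probe set reached 0.8. CCL was most like AT4G14270 (0.860), AT3G18050 (0.856) and AT3G47160 (0.840), with 18 probe sets at 0.8 or more. AT3G62550 was most like AT3G47160 (0.881), AT2G15960 (0.873) and AT1G21680 (0.843), with 25 at 0.8 or more, members left out. RVE6 was most like AT2G40460 (0.864), AT1G75810 (0.839) and AT3G59910 (0.830), also with 25. CCL and AT3G62550 thus shared AT3G47160, which read 6.12 ± 0.47 at Col light 120 and 8.04 ± 0.13 at CCA1OX dark 1240 (mean ± SD, n = 5 each). AT2G40460, AT1G75810 and AT3G59910 had, as RVE6 did, higher means in each of the 4 light groups than in any dark group.

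Other clock genes could be followed at 4 of 27 listed loci, and 1 of them passed in CCA1OX against Col at dark 1240, where 0.62% of all probe sets did. That was GI, an evening gene that acts in the clock and in flowering, which was higher in CCA1OX by 2.85 ± 0.652 (adjusted p = 0.0164), at 6.37 ± 0.31 against 3.52 ± 0.35 (mean ± SD, n = 5 each). The median of the 4 was -0.04 there, beside -0.01 over all probe sets. In the other tested contrasts between lines and times, which left out the Col light arrays, 0 of 4 passed. TIC, a regulator of clock rhythm, was the 1 of 4 that passed on day 6, where 20.2% of probe sets did (0.37 ± 0.0847, adjusted p = 1.44e-03). AT4G33980, 1 of the 4, had the highest correlation with COR27 of the listed genes, 0.748 over 48 arrays and 0.810 within groups. It was high on Col dark 1240 replicate 3 (5.53) and on the day 4 arrays of pif4 pil5 (4.05 and 3.91), where COR27 was high too, but it read 2.32 to 3.44 at dark 1240 of CCA1OX, where all 5 arrays of COR27 were high.

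Of the cold-regulated genes 4 of 13 were named, COR15A, COR15B, COR47 and AT4G33980. None passed between lines or times of day. COR15A and COR15B, which encode chloroplast proteins that protect membranes in the cold, rose on day 6 by 1.74 ± 0.428 and 1.22 ± 0.353 (adjusted p = 2.93e-03 and 0.0108), so that 2 of 4 passed where 20.2% of probe sets did, and 0 of 4 passed on day 5, where 6.46% did. The median of the 4 on day 6 was 0.78, beside 0.00 over all probe sets. Of the MYB-like family of CCA1 and RVE6, 2 of 10 were named, RVE6 and AT4G01280, whose correlation was 0.692 over 48 arrays and 0.608 within groups, and AT4G01280 passed in none of the 11 contrasts. In a list of 16 loci written as universal stress protein genes, 15 were named, and of the 14 other than AT3G62550, AT3G17020 passed in CCA1OX against Col at dark 1240 (0.56 ± 0.115, adjusted p = 5.00e-03), AT3G11930 on days 5 and 6 (0.34 and 0.40), and AT3G58450 and AT5G14680 on day 6 (0.65 and 0.19). That is 1 of 14 at dark 1240 (0.62% of all probe sets), 1 of 14 on day 5 (6.46%) and 3 of 14 on day 6 (20.2%), a share close to the background on both days. With array date as a block the number of probe sets called on day 6 fell from 4604 to 454, and of the listed genes called on a day, TIC, COR15A and COR15B included, 0 of 1 on day 5 and 0 of 6 on day 6 passed. None of the 14 passed from light to dark in CCA1OX, where 1.43% and 4.32% of probe sets did, with medians of -0.09 and -0.08 beside 0.01 over all probe sets in each cycle.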

How the data were processed

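RNA of pooled seedlings was measured on 48 ATH1 arrays in 9 groups, taken from the labels. The deposited table holds log2 values that the authors made by RMA with affy, per the submitters' processing notes (versions and genome build are not given in the sources used here). The number of arrays sets the precision, since arrays give no counts. Control probe sets (64 of 22810) were not tested. Names came from the platform annotation: 13513 probe sets had 1 gene, 503 several and 8730 none here.

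A model with 1 mean per group was fitted to the 48 arrays with limma 3.58.1 (R 4.3.3) (39 residual degrees of freedom, median residual SD 0.244). Contrasts were tested two-sided, adjusted by Benjamini-Hochberg over 22746 probe sets, at a threshold of 0.05. For days, additive terms for days 5 and 6 were added (37 residual degrees of freedom). The fit was tested on simulated data. The members, lists and most alternatives were chosen with earlier results of these data known.

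The design had planned tests in some contrasts with Col light arrays. After the fits were seen, no p was given for a member there, because those arrays chose the genes. Genes other than the members were named by a rule: for each member, the 3 single-gene probe sets with the highest Pearson correlation over 48 arrays, and from each list at most the 4 largest called genes in the contrasts of lines and times. List genes called on a day, uncalled genes and AT4G33980 beside COR27 lie outside it and were named after their values were seen. The darkness score is the mean of 161 probe sets higher in the dark minus that of 332 lower, in Col and CCA1OX arrays of the second campaign, each past adjusted p 0.05 and a log2 difference of 1, members left out. The 3 arrays that stood apart were known from earlier results. The score and the RNA quality measure were computed after the values were seen.

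Alternatives were blocks for the replicate number, array date, or time course and day; each campaign or line alone; median centring; removal of the lowest 25% of probe sets; a trended and robust prior; array weights; only the groups compared; 45 arrays; and single arrays omitted. The replicate number in the titles names the time course, per the series' design. The mean residual correlation was 0.297 for arrays of one day and time course, 0.0781 for other days of it and -0.158 across time courses. Between pif4 pil5 and Col at dark 280 the correlation was -0.0205 for the same number.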

Additional observations from a re-analysis of the deposited data

Results flagged for a closer look

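Within the 36 groups of values (4 genes in 9 groups), 5 held an array far from the rest of its group by Dixon's test at the 95% level. Chance gives this in about 1 of 20 groups of independent, normal values. The 4 genes share their arrays and each group spans several days, so that rate is only nominal here. COR27 read 4.378 on Col dark 280 replicate 4 (day 4), far above the other 5 arrays, at 2.25 to 2.76. On Col dark 1240 replicate 3 (day 6) COR27 read 5.6549 and AT3G62550 10.092, each the highest of its group by far. CCL read 9.1329 on CCA1OX dark 280 replicate 2 (day 5), below the others at 10.48 to 11.15, and this array is among the 3 whose light-responsive genes went against their label. AT3G62550 read 3.1109 on Col light 120 replicate 4 (day 4), below the others at 4.85 to 5.48.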

How the results depend on the processing

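The rise of COR27 (2.55 to 2.89) and AT3G62550 (1.65 to 1.92) from light 1080 to dark 1240 in CCA1OX and the day differences of RVE6 and AT3G62550 kept their calls whichever of the 48 arrays was left out. The replicate block changed 0 of 68 results, of which 44 were tests and the rest descriptions. Most of these tests had no call with or without the block. With it the rise of COR27 in the dark at 1240 min was 2.72, as without. Counts over all probe sets moved by over 1.5 times. With single arrays left out, and then over the other alternatives, they ran from 12 to 905 and 0 to 1267 for dark 280 minus light 120 in CCA1OX (326 as reported) and from 585 to 1130 and 0 to 2205 for dark 1240 minus light 1080 (982). They ran from 1046 to 1757 and 11 to 1803 for day 5 (1469) and from 4008 to 4677 and 454 to 5314 for day 6 (4604). For pif4 pil5 minus Col the ranges were 43 to 633 and 21 to 640 (138), for CCA1OX minus Col 14 to 39 and 4 to 98 at dark 280 (28) and 106 to 159 and 16 to 615 at dark 1240 (141), and for dark 280 minus dark 1240 in Col 11 to 31 and 0 to 58 (23), with up to 21 for its difference between lines (0).

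Dark minus light in CCA1OX lost calls with fewer arrays. Over all probe sets at dark 280, 1 was called in campaign 1, 816 in campaign 2 and 0 with only the groups compared. At dark 1240, 0 were called in campaign 1 and 594 in campaign 2. AT3G62550 at dark 280 was 1.73 in campaign 1, 2.09 in campaign 2 and 1.96 with only the groups compared; at dark 1240 it was 1.91 and 1.53 by campaign, and COR27 3.12 and 2.11. Calls were gained by CCL (1.31) and COR27 (1.99) at dark 280 with array weights, by COR27 (2.17), CCL (1.51) and RVE6 (-0.57) with 45 arrays, and at dark 1240 by CCL with array weights (1.07) or only the groups compared (1.11) and by RVE6 (-0.40) with the latter. With single arrays left out, the dark 280 differences ran from 1.78 to 2.30 for AT3G62550, from 1.51 to 2.17 for COR27 and from 1.11 to 1.51 for CCL. CCL gained its call without CCA1OX dark 280 replicate 2, and COR27 without that array, its replicate 1, or replicate 1 of pif4 pil5.

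For days, RVE6 lost its day 5 call with the array date block (0.23), in campaign 1 (0.51) and 2 (0.26), and in Col (0.44), CCA1OX (0.36) or pif4 pil5 (0.30) alone. It lost its day 6 call likewise (0.21, 0.47, 0.29, 0.56, 0.29 and 0.17). AT3G62550 lost its day 6 call with the array date block (0.80), in campaign 1 (0.61) and in Col (1.12), CCA1OX (0.64) or pif4 pil5 (0.14) alone, and turned on day 5 in pif4 pil5 (-0.72). COR27 turned on day 5 in CCA1OX (0.077) and campaign 1 (0.26), was called in pif4 pil5 (-3.06), and turned on day 6 with the array date block (-0.57), in campaign 2 (-0.62) and in pif4 pil5 (-2.55, called). CCL turned on day 5 in CCA1OX (-0.053), campaign 1 (-0.15) and pif4 pil5 (-0.46) and on day 6 in pif4 pil5 (-0.031).

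Among uncalled differences, CCA1OX minus Col turned in campaign 1 for AT3G62550 at dark 1240 (-0.073) and CCL at dark 280 (-0.078). Dark 280 minus dark 1240 turned in campaign 2 for COR27 in CCA1OX (0.49) and Col (0.19) and for CCL in Col (0.21), and for CCL in Col with array weights (0.019). RVE6 in CCA1OX, close to 0, turned with array weights (-0.00031), median centring (-0.0034), time course and day blocks (-0.0056), campaign 2 (-0.054) and 45 arrays (-0.12), and in Col with 45 arrays (-0.11). The line difference of this contrast turned for AT3G62550 (0.029) and COR27 (-0.24) with array weights, for COR27 in campaign 2 (-0.30) and for CCL (-0.072) and COR27 (-0.18) with 45 arrays. COR27 at light 1080 minus light 120 in CCA1OX turned with the array date block (0.011). As values without a test, CCA1OX minus Col at light 120 was 1.31 and 2.85 for CCL by campaign and 2.16 for AT3G62550 in campaign 2, and at light 1080 it was 1.05 for CCL and 0.26 for AT3G62550 in campaign 2.

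With single arrays left out, signs also turned for RVE6 in CCA1OX minus Col at dark 280 (-0.0038 to 0.32), in pif4 pil5 minus Col (-0.093 to 0.22), in light 1080 minus light 120 of CCA1OX (-0.16 to 0.0092) and in dark 280 minus dark 1240 of CCA1OX (-0.12 to 0.088) and Col (-0.11 to 0.21). CCL turned in the latter in Col (-0.53 to 0.13), and the line difference turned for AT3G62550 (-0.57 to 0.20), CCL (-0.14 to 0.52), COR27 (-0.19 to 0.74) and RVE6 (-0.11 to 0.22). The causes were not tested. The dim signal of COR27, 24 of 48 values under 2.61, limits its low end. Campaign 1 gave no value for pif4 pil5 minus Col, since it held no pif4 pil5 array.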
